A study of Mus musculus with 8 samples.

Results

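The genes described here carry the mouse symbols Zfp or Zbtb followed by a number, and the data concern Foxp3 binding sites at or near them. Each of the 5521 deposited sites (mm10) was given the protein-coding RefSeq gene that contained its centre, from 5 kb before to 5 kb after the gene, with a gene body that contained the centre taken first and the shortest gene preferred, or otherwise the nearest gene end within 100 kb. This rule gave 66 sites at 45 genes, 11 sites at 8 Zbtb genes and 55 at 37 Zfp genes. Of the 438 protein-coding genes with such a symbol in the RefSeq table (GRCm38.p6), 10.3% had a site, against 12.6% of all 21900 protein-coding genes. The share was 19.5% of the 41 Zbtb genes and 9.32% of the Zfp genes. A gene name given to a site by position does not show that the site acts on that gene, and 20 of the 66 sites lay more than 5 kb from the gene they were given to.

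Zinc finger proteins bind DNA or RNA through small domains that are each folded around a zinc ion, and most Zfp and Zbtb genes encode the C2H2 kind, in which a row of fingers reads a DNA sequence. Zbtb proteins add a BTB domain, through which they pair and recruit corepressors, and several of them steer lymphocyte development. Many Zfp proteins carry a KRAB domain and silence retroelements, and their genes often lie in clusters of near copies. The sources used here do not give how reads that match several places were handled. The symbols also cover unlike proteins, such as Zfp36l1, a CCCH protein that binds AU-rich messenger RNAs and promotes their decay.

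Foxp3 is the transcription factor on which regulatory T (Treg) cells depend. CUT&Tag maps where it sits on DNA, by an antibody that guides a transposase to cut and tag the DNA around it. Treg cells (CD4+hCD2+GFP-) of lymph nodes and spleen were sorted from C57BL6/J mice with the genotype Foxp3WT-IRES-hCD2/Foxp3-IRES-GFP (WT) or Foxp3R397W-IRES-hCD2/Foxp3-IRES-GFP (R397W). All mice thus carried a Foxp3-IRES-GFP allele beside the hCD2-marked one, and the sort kept cells that used the hCD2-marked allele. R397W is an amino acid change in Foxp3. Ages are not given in the labels used here. Each genotype had 2 libraries with a rabbit anti-Foxp3 antibody and 2 with normal rabbit IgG, the background control. The labels do not say whether libraries numbered 1 and 2 came from separate mice, so p-values capture only how these samples vary, which may be technical variation. The sites come in classes that the authors named common, cTreg-specific and eTreg-specific.

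Recovered reads summed over all sites ranged from 111274 to 394196 per library. These sums are not library depths. Values below are the authors' normalised read counts over sites of 400 bp, which the authors label spike-in normalised. A log2 fold change is a difference in log2(value + 1), which understates changes of low values. The number of recovered reads that makes a value of 1 differed between site classes within a library. It was 0.825 (common), 1.19 (cTreg-specific) and 1.15 (eTreg-specific) in WT Foxp3 replicate 1. In WT IgG replicate 1 it was 1.51, 1.17 and 1.59. Ranks, means, medians and ranges that mix classes thus mix scales. Tests are limma fits over all 5521 sites with Benjamini-Hochberg adjustment, and a site passed, or was called, at adjusted p under 0.05. With 2 libraries against 2, an exact permutation test could not go below p = 0.33. Coverage differed with the library number, and this touches every value below. At the 66 sites, the libraries numbered 1 lacked reads at 1.52% (WT Foxp3), 12.1% (R397W Foxp3), 28.8% (WT IgG) and 10.6% (R397W IgG) of sites, and the libraries numbered 2 at 34.8%, 48.5%, 53.0% and 48.5% in the same order. The libraries come from bulk cells, so a site used in fewer cells and a site used less in each cell cannot be told apart. Expression was not measured. Among marker genes, 4 of 5 Treg genes (Foxp3, Il2ra, Ctla4 and Ikzf2) had sites, 22 in all, and none of the 5 B cell or the 5 myeloid marker genes had one. The sites are the authors' lists, and 12.6% of all protein-coding genes had a site. These counts therefore do not tell which cells were in the libraries.

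Sites on start sites come first, because the sequence around the annotated start can be shown. RefSeq promoter windows, which run from 250 bases before to 50 after an annotated start, were available for 34 of the 45 genes. Distances to a start are to the nearest of these annotated starts, which lay inside the gene body at Zfp445, Zfp827, Zbtb7a and Zfp62. Of the 66 sites, 9 overlapped a window of their own gene, namely those of Zfp93, Zfp113, Zfp445, Zfp507, Zfp563, Zfp644, Zfp658, Zfp799 and Zfp827. That is 13.6% of the members, against 8.29% of the 5210 sites with a gene (432 sites). All 9 were common sites, and none of the 11 Zbtb sites was among them. Windows were available for only 6 of the 8 Zbtb genes, and not for Zbtb10 or Zbtb40, so a site on the start of either could not be counted. Another 2 sites fell on the window of a neighbouring zinc finger gene (Zfp398 at the site given to Zfp786, and Zfp617 at that given to Zfp882).

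The windows of 4 of these genes are printed from RefSeq (GRCm38.p6), 5′ to 3′ on the gene's strand. Their sites differ in which antibody, or which genotype, gave more signal. Each of the 4 windows holds a motif match, so they do not stand for all 9 genes. The Zfp445 window, not printed, held no match. Its site had a larger R397W minus WT log2 fold change in the Foxp3 libraries (2.19) than the Zfp563 site (1.49). Zfp93 had signal only with anti-Foxp3, Zfp507 and Zfp799 had more signal with IgG than with anti-Foxp3 in WT cells, and Zfp563 had more Foxp3 signal in R397W than in WT. Capitals mark the ETS core CCGGAA (Zfp93) and the RUNX core TGTGGT (Zfp507, Zfp563 and Zfp799) on either strand.
Zfp93 (chr7:24270168-24270467, plus strand): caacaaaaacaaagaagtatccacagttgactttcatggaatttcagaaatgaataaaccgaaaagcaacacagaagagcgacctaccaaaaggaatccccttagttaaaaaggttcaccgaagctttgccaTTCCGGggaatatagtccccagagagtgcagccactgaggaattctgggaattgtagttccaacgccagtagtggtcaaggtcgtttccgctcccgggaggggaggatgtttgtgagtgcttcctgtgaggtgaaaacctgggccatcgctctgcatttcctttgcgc
Zfp507 (chr7:35802940-35803239, minus strand): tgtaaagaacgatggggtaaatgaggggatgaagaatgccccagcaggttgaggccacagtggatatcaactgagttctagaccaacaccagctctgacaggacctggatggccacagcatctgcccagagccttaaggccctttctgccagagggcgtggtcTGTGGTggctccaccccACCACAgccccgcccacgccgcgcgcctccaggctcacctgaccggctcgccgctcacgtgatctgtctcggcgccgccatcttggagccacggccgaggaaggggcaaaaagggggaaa
Zfp799 (chr17:32830212-32830511, minus strand): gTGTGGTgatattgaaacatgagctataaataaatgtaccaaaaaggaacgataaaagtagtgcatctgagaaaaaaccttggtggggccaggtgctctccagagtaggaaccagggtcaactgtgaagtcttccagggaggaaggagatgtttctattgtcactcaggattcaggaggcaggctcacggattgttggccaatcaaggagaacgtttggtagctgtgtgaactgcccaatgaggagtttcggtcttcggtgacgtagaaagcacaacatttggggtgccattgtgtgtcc
Zfp563 (chr17:33089117-33089416, plus strand): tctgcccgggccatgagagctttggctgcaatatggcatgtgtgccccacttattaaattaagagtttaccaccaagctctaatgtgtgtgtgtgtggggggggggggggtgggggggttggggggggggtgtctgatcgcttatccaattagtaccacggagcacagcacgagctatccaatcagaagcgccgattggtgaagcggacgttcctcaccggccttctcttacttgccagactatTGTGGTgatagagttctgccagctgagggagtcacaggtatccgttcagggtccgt

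The letters were searched on both strands in the 10 windows that these 9 sites overlap (Zfp644 has 2). The forkhead core TGTTTAC, the recognition sequence of the Foxp3 family, was in 0 of the 10, against 3.65% of all 32851 windows and 8.60% of the 651 windows that any site overlaps. The repeat TTTGTTTG, a form that Foxp3 can also bind, was likewise in 0 of the 10, against 2.61% of all windows and 3.84% of those that any site overlaps. The ETS core was in 2 of the 10 (Zfp93 and Zfp113), against 14.9% of all windows, 35.8% of those that any site overlaps and 34.4% of the 456 Zfp and Zbtb windows. The RUNX core was in 3 of the 10, against 16.8%, 14.7% and 17.3% in the same order. The forkhead core and the repeat were in 1.54% and 1.75% of the Zfp and Zbtb windows. The 4 motifs share no overlapping match in the printed windows. A match is a description of letters, and a missing match says nothing of the factor. Windows and sites overlap only in part, so a match in a window need not lie within the site. The marked RUNX core of Zfp799, at the 5′ end of its window, lies outside the site. The 10 windows held a median of 11 CG dinucleotides, against 14.5 over the 456 windows of Zfp and Zbtb genes and 20 over the windows that any site overlaps.

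At the Zfp93 start the centre of the site (chr7:24270233-24270633) lay 15 bp past the start. The normalised read count was 7.28 and 25.1 in WT Foxp3 (replicates 1 and 2, the order used throughout), 21.0 and 5.15 in the R397W cells, and 0 in all 4 IgG libraries. These values rest on 6, 54, 8 and 8 reads in the 4 Foxp3 libraries. A count of 0 allows up to 3 reads, which would be a value of 1.49 to 6.79 in the IgG libraries, so the lowest Foxp3 value, 5.15, is not above what R397W IgG replicate 1 could hold. Such floors cover counting error only, and the sources used here do not give whether duplicates were removed. All 4 Foxp3 libraries lay above all 4 IgG libraries at 2 member sites, this and the Zfp706 site, which is 3.03% of members, where 1.38% of the 5521 sites did so.

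The Zfp507 start showed the reverse. The site (chr7:35802716-35803116, centre 73 bp past the start) had 20.6 and 12.6 (Foxp3) and 85.9 and 101 (IgG) in WT cells, and 10.5 and 53.5 (Foxp3) and 83.7 and 78.3 (IgG) in R397W cells. It was the 1 member at which all 4 IgG libraries lay above all 4 Foxp3 libraries (0.38% of all sites). At the Zfp799 start (chr17:32829976-32830376, centre 85 bp past the start) the values were 15.8 and 6.98 (Foxp3) and 41.6 and 62.7 (IgG) in WT cells, and 13.1 and 30.3 (Foxp3) and 22.6 and 118 (IgG) in R397W cells. Both WT IgG values there exceeded both WT Foxp3 values, and the R397W libraries overlapped. Neither site passed limma for Foxp3 against IgG in WT (log2 fold change −2.46, SE 1.93, at Zfp507 and −2.17, SE 2.38, at Zfp799; adjusted p = 0.991 for each).

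The strongest of the 9 was the Zfp658 start (chr7:43562137-43562537), with 182 and 101 (Foxp3) and 183 and 105 (IgG) in WT cells, and 99.8 and 227 (Foxp3) and 258 and 52.8 (IgG) in R397W cells. Foxp3 and IgG were alike within each WT replicate there and crossed in R397W. At Zfp644 (chr5:106696561-106696961) the values were 75.2 and 135 (Foxp3) and 130.2 and 137 (IgG) in WT cells, and 76.1 and 242 (Foxp3) and 74.7 and 214 (IgG) in R397W cells. Replicate 2 was the higher in each of the 4 groups, and Foxp3 and IgG overlapped in both genotypes. The Zfp445 start, of a KRAB gene known for the upkeep of imprints, had 29.1 and 13.5 (Foxp3) and 65.4 and 38.8 (IgG) in WT cells, and 73.5 and 121 (Foxp3) and 54.3 and 137 (IgG) in R397W cells. Both R397W Foxp3 values lay above both WT Foxp3 values, while WT IgG also exceeded WT Foxp3.

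At Zfp563 (chr17:33089316-33089716, centre 149 bp past the start) the values were 27.9 and 43.8 (Foxp3) and 27.1 and 0 (IgG) in WT cells, and 68.3 and 146 (Foxp3) and 215 and 38.2 (IgG) in R397W cells. R397W Foxp3 lay above WT Foxp3, yet the highest value of all was an R397W IgG library. Zfp827, whose human counterpart brings a deacetylase complex to telomeres, had a site inside the gene, 322 bp before an annotated start within the gene body. Its values were 53.4 and 51.2 (Foxp3) and 63.4 and 84.6 (IgG) in WT cells, and 7.88 and 35.4 (Foxp3) and 9.05 and 8.91 (IgG) in R397W cells. Here WT exceeded R397W with either antibody. At Zfp113 the values were 146 and 12.1 (Foxp3) and 102 and 0 (IgG) in WT cells, and 76.1 and 361 (Foxp3) and 67.9 and 93.5 (IgG) in R397W cells. The highest value (R397W Foxp3) and the lowest (WT IgG) were both in libraries numbered 2.

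**Figure D1:**
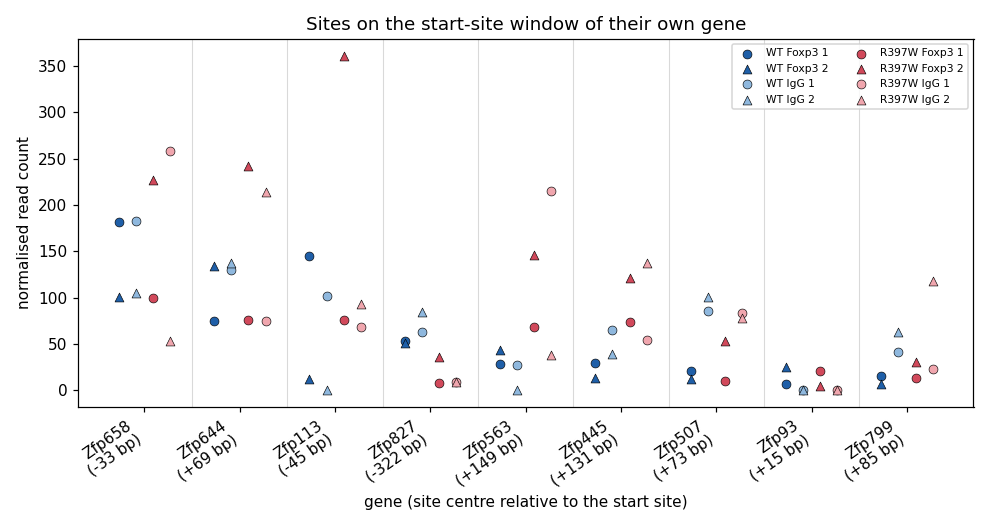
Normalised read count (linear axis) at the 9 sites that overlap the start-site window of their own gene, 1 point per library, coloured by group and shaped by library number. Zfp93 has points above 0 with anti-Foxp3 alone, and at Zfp507 the 4 IgG points lie above the 4 Foxp3 points.

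Over these 9 sites the mean was lower with anti-Foxp3 than with IgG in both WT replicates. It was 61.9 and 44.5 (Foxp3), where IgG gave 77.6 and 58.8. The 39 common members away from any window had 66.1 and 61.4 against 57.9 and 63.8. Over all classes, the 535 sites on any window had 77.2 and 84.7 in WT Foxp3 against 84.0 and 95.8 in WT IgG, and the 4986 others 54.0 and 27.2 against 31.3 and 19.3. The median log2 difference, Foxp3 minus IgG in WT, was −0.41 at the 9 sites, −0.03 at all sites on a window and 1.41 at all others. In R397W the mean at the 9 sites was 49.6 and 136 (Foxp3), where IgG gave 87.3 and 82.4, so the order differed between the replicates. Sites on windows also had more complete coverage, with reads in all 8 libraries at 6 of the 9, at 340 of the 535 sites on any window and at 598 of the 4986 others, and the part of coverage in these differences was not tested.

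Among the Zbtb genes, the Zbtb7a site stood far above the rest. Zbtb7a encodes LRF, a repressor that acts with its relative ThPOK in CD4 T cells. The site (chr10:81137195-81137595) lies inside the gene, 1124 bp past its start, and had the third highest WT Foxp3 mean of all 5521 sites (rank 3). Its values were 509 and 845 (Foxp3) and 976 and 1200.2 (IgG) in WT cells, and 575 and 756 (Foxp3) and 414 and 688 (IgG) in R397W cells. The WT Foxp3 mean was 677 ± 237 and the WT IgG mean 1088 ± 158 (SD, n = 2), so the IgG background exceeded the Foxp3 signal in WT, without overlap. In R397W the means were 665 ± 128 with anti-Foxp3 and 551 ± 194 with IgG, with Foxp3 the higher of each same-numbered pair.

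In the fit over 8 libraries the Zbtb7a log2 fold change, Foxp3 minus IgG, was −0.72 (SE 0.20; limma adjusted p = 0.156) in WT and 0.30 (SE 0.20; adjusted p = 1) in R397W. The difference between genotypes was 1.03 (SE 0.28; limma adjusted p = 0.407). With the library number as a block both the WT value and the difference passed (limma adjusted p = 0.0157 and 0.0145), and with the cell sample as the block neither did (0.697 and 0.845). The Foxp3 libraries alone gave a log2 fold change of 0.01 (SE 0.37) for R397W minus WT, and the genotypes overlapped. The IgG libraries of the 2 genotypes did not overlap at this site.

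Zbtb10 had the second strongest Zbtb site (chr3:9249729-9250129), 638 bp outside the gene. Its values were 179 and 189 (Foxp3) and 119 and 132 (IgG) in WT cells, and 76.1 and 55.4 (Foxp3) and 56.6 and 94.2 (IgG) in R397W cells. Both WT Foxp3 libraries exceeded all 6 others. The R397W minus WT log2 fold change was −1.49 (SE 0.65), which had the lowest unadjusted p of any member in that comparison (0.0592, limma) and an adjusted p of 1. WT IgG also lay above R397W IgG without overlap, at means of 125 ± 9.13 and 75.4 ± 26.6 (SD, n = 2).

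Zbtb38, a protein that binds methylated DNA, had 3 sites, 2 of them eTreg-specific. The eTreg-specific site 12618 bp outside the gene (chr9:96669949-96670349) was the strongest class-specific member, with 104 and 176 (Foxp3) and 137 and 56.0 (IgG) in WT cells, and 52.4 and 105 (Foxp3) and 151 and 51.4 (IgG) in R397W cells. WT and R397W Foxp3 overlapped there only by a margin of 105 against 104. The other eTreg-specific site, 8868 bp before the start, had reads in 3 libraries, of which 14.7 in WT Foxp3 replicate 1 was the highest. The common site inside the gene had 38.8 and 0 in WT Foxp3 and 5.25 and 0 in R397W Foxp3.

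Inside Zbtb46, a factor known from classical dendritic cells, a common site (chr2:181483544-181483944) had 87.3 and 82.4 (Foxp3) and 50.2 and 94.0 (IgG) in WT cells, and 55.1 and 0 (Foxp3) and 58.8 and 1.91 (IgG) in R397W cells. R397W replicate 2 was empty or nearly so with both antibodies. The Zbtb40 site (chr4:137048551-137048951), which spans an end of the gene body, had more signal with IgG than with anti-Foxp3 in WT, at 72.0 and 255 against 40.0 and 69.4. In R397W cells it had 65.6 and 148 (Foxp3) and 61.1 and 158 (IgG), which overlapped. The neighbouring Zbtb1 and Zbtb25, of which Zbtb1 is required for lymphoid development, had a common site each. At Zbtb1 the values were 55.8 and 12.6 in WT Foxp3 and 3.97 and 0 in WT IgG, and at Zbtb25 21.8 and 9.31 in WT Foxp3 and 0 and 0.498 in WT IgG, so Foxp3 lay above IgG without overlap at each. R397W replicate 2 had 0 with anti-Foxp3 at each, and R397W IgG replicate 1 had 47.5 and 158.

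Zbtb20, best known as a repressor of fetal liver genes, held a common and an eTreg-specific site, both far inside its long body. The common site had 12.1 and 0 in WT Foxp3 and 21.0 and 29.6 in R397W Foxp3, which separated the genotypes, with R397W IgG replicate 1 at 45.3. The eTreg-specific site had reads in 2 libraries, WT Foxp3 replicate 1 (12.1) and WT IgG replicate 1 (11.9). Of the 12 Zbtb genes listed as T cell regulators, 7 had a site (10 sites), and Zbtb7b, Zbtb16, Zbtb17, Zbtb24 and Zbtb32 had none. Nothing is read from that count, since the list was drawn up with results of these data known and holds 7 of the 8 Zbtb genes with a site. The 11 Zbtb sites were 8 common, 0 cTreg-specific and 3 eTreg-specific.

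The Zfp36 family of messenger RNA decay factors had a single site, an eTreg-specific site 38513 bp from Zfp36l1 (chr12:80069047-80069447). Its values were 49.4 and 3.84 (Foxp3) and 33.3 and 0 (IgG) in WT cells, and 18.9 and 0 (Foxp3) and 59.5 and 34.3 (IgG) in R397W cells. WT and R397W Foxp3 overlapped, and both R397W IgG libraries lay above both R397W Foxp3 libraries. The log2 fold change, R397W minus WT Foxp3, was −1.81 (SE 3.66; limma adjusted p = 1). Zfp36, Zfp36l2 and Zfp36l3 had no site by the rule.

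**Figure D2:**
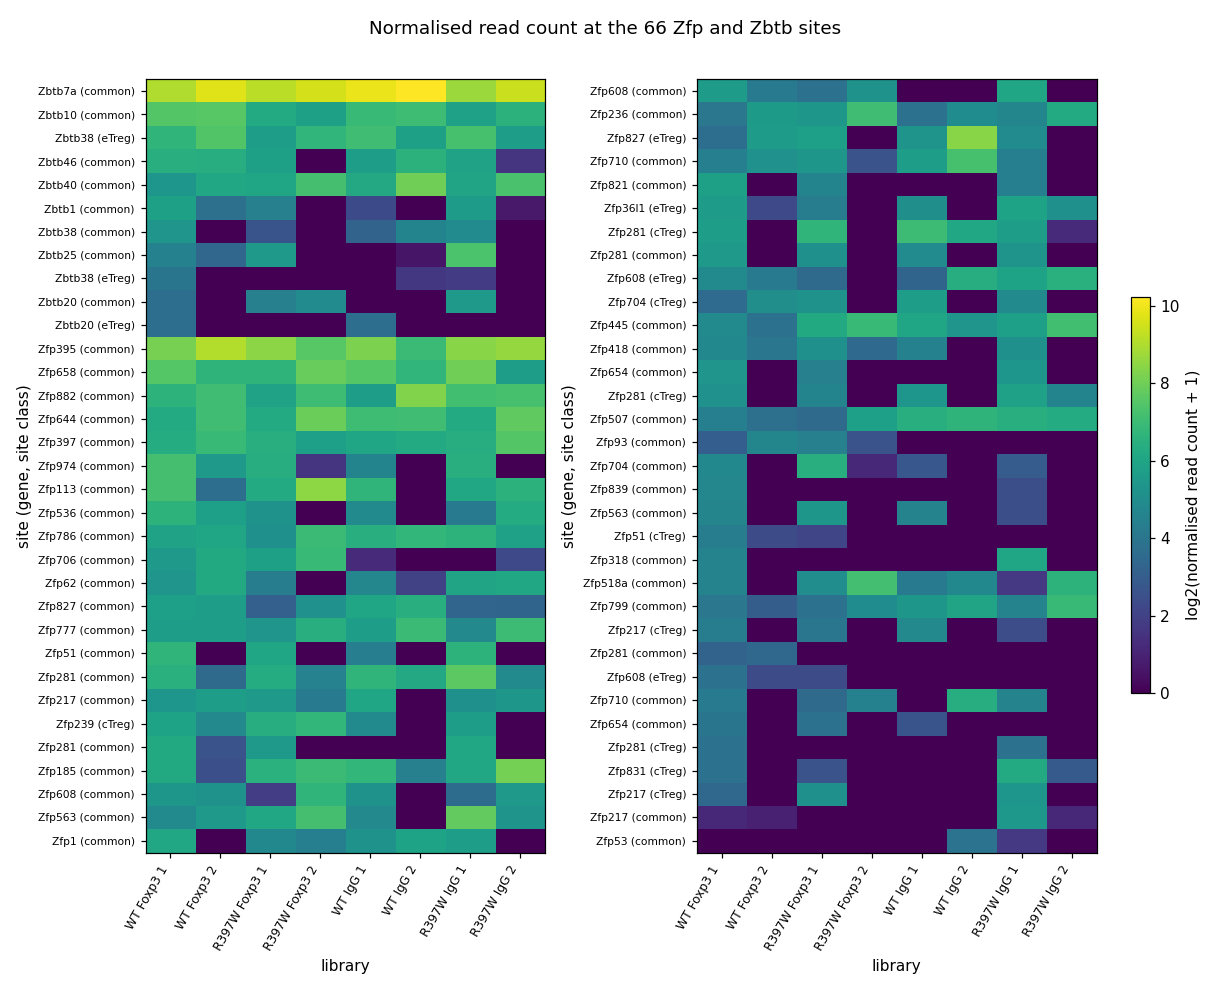
log2(normalised read count + 1) at the 66 sites (rows, in 2 panels, Zbtb first and then Zfp, each by WT Foxp3 mean) in the 8 libraries (columns), with the site class in brackets. The Zbtb7a and Zfp395 rows are high in every library, and the libraries numbered 2 have many rows at 0.

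Of the other Zfp sites, the strongest was common and lay 14688 bp from Zfp395 (chr14:65343788-65344188; rank 15 of 5521 by WT Foxp3 mean). Its values were 277 and 530.3 (Foxp3) and 295 and 124 (IgG) in WT cells, and 347 and 187 (Foxp3) and 337 and 388 (IgG) in R397W cells. WT Foxp3 and WT IgG overlapped, and the log2 fold change was 0.99 (SE 0.45; limma adjusted p = 0.991) in WT and −0.50 (SE 0.45; adjusted p = 1) in R397W. The site given to Zfp882, which lies on the Zfp617 start, had 97.0 and 136 (Foxp3) and 52.2 and 310.0 (IgG) in WT cells, and 57.8 and 132 (Foxp3) and 138 and 153 (IgG) in R397W cells, with its highest value in WT IgG.

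The largest fitted excess of Foxp3 over IgG was at a common site 94751 bp from Zfp706 (chr15:36902076-36902476), near the limit of the rule. Its values were 43.7 and 74.0 (Foxp3) and 1.32 and 0 (IgG) in WT cells, and 55.1 and 117 (Foxp3) and 0 and 3.82 (IgG) in R397W cells. All 4 Foxp3 libraries were above all 4 IgG libraries, on 21 to 181 reads with anti-Foxp3 and 0 to 6 with IgG. The log2 fold change, Foxp3 minus IgG, was 5.25 in WT and 5.21 in R397W (SE 3.22 for each), and 5.23 (SE 2.27; limma adjusted p = 0.999) over both, a contrast added after the values were seen. That contrast called 0 members (0.0181% of all sites), and Zfp706 was the 1 member at unadjusted p under 0.05 (2.32%). WT and R397W Foxp3 overlapped, with a difference of 0.49 (SE 0.90).

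Over all members, limma called 0 sites for Foxp3 against IgG in WT (0.0725% of all 5521 sites) and 0 in R397W (0% of all sites). At unadjusted p under 0.05 there were 2 members in WT (2.57% of all sites), Zfp395 above and Zbtb7a below IgG, and 0 in R397W (1.47%). In WT, edgeR and DESeq2 also called 0 members, and 1 (Zbtb7a) and 3 (Zfp706, Zfp608 and Zfp281) members had an unadjusted p under 0.05 by these tools. In R397W they likewise called 0, with 0 and 1 (Zfp706) at unadjusted p under 0.05. The libraries did not overlap, with Foxp3 higher, at 17 members in WT (19.5% of all sites) and 3 in R397W (10.4%), and with IgG higher at 9 in WT (4.84%) and 7 in R397W (7.84%). As shares of the 66 these were 25.8%, 4.55%, 13.6% and 10.6%. The 3 in R397W were Zfp239, Zfp706 and Zfp93. The difference between genotypes in Foxp3 minus IgG was called at 0 members (0% of all sites), with 2 at unadjusted p under 0.05 (1.65%), Zbtb7a and Zfp395.

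Among the sites without overlap in WT, the largest fitted excess after Zfp706 was at a common site inside Zfp608, which was described as a repressor of recombinase genes in thymocytes (chr18:54906554-54906954). It had 48.5 and 17.2 (Foxp3) and 0 and 0 (IgG) in WT cells, and 13.1 and 36.7 (Foxp3) and 65.6 and 0 (IgG) in R397W cells. Next was a common site 55053 bp from Zfp281 with 74.0 and 5.12 (Foxp3) and 0 and 0 (IgG) in WT cells, and 44.6 and 0 (Foxp3) and 67.9 and 0 (IgG) in R397W cells. Each WT IgG library was at 0 at these 2 sites, while R397W IgG replicate 1 was high. In the other direction, a cTreg-specific site 42351 bp from Zfp281 had 129 and 69.4 in WT IgG and 52.2 and 0 in WT Foxp3.

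In WT cells the mean over the 66 sites was 56.9 and 50.1 (Foxp3), where IgG gave 54.6 and 60.5. In R397W cells it was 49.2 and 57.0 (Foxp3), where IgG gave 61.4 and 53.1. The order of antibodies thus differed between the replicates in each genotype. Over all 5521 sites the mean in WT was 56.3 and 32.8 with anti-Foxp3 against 36.4 and 26.7 with IgG. Zbtb7a weighs on the member means. Without it they were 49.9 and 37.9 in WT Foxp3 and 40.4 and 42.9 in WT IgG. The median log2 difference, Foxp3 minus IgG, was 0.82 over members and 1.27 over all sites in WT, and −0.11 and 0.05 in R397W. Single libraries moved these medians. In WT, leaving out Foxp3 replicate 1 gave 0.00 (members) and 0 (all sites), and leaving out Foxp3 replicate 2 gave 2.14 and 2.68. Leaving out IgG replicate 1 gave 1.89 and 2.18, and leaving out IgG replicate 2 gave 0.06 and 0.21. In R397W the member median was −0.68 without Foxp3 replicate 1, 0.05 without Foxp3 replicate 2, 0.68 without IgG replicate 1 and −0.82 without IgG replicate 2.

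**Figure D3:**
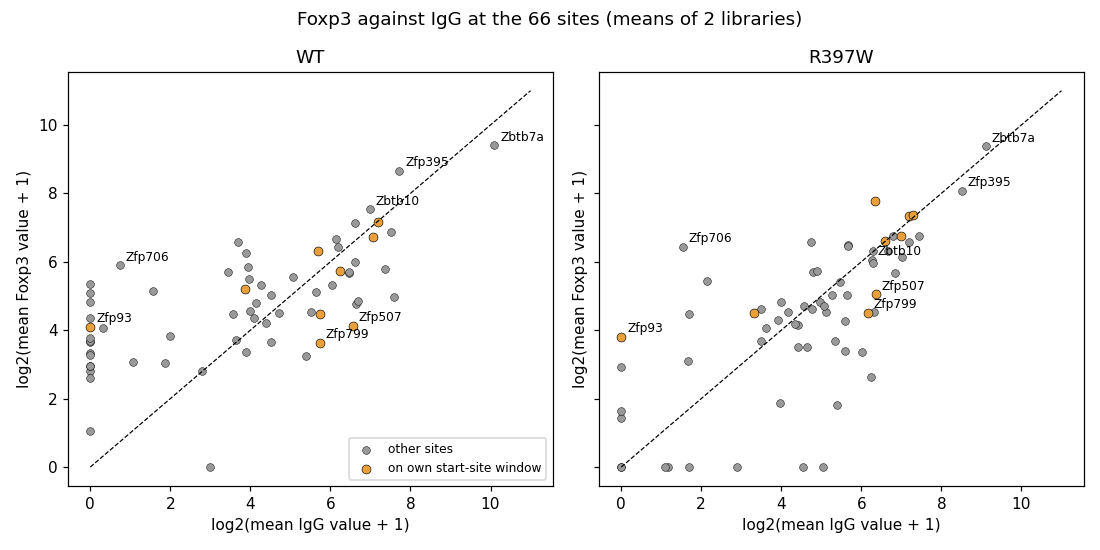
Mean Foxp3 value against mean IgG value at each of the 66 sites, both as log2(mean of 2 libraries + 1), in WT (left) and R397W (right), with the dashed line at equality. Zbtb7a lies below the line in WT and above it in R397W, Zfp706 lies far above it in both, and the sites on start-site windows (orange) lie on both sides.

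Between R397W and WT, in the 4 Foxp3 libraries, limma called 0 members (0% of all 5521 sites), none had an unadjusted p under 0.05 (0.326% of all sites), and edgeR and DESeq2 also gave 0 on both counts. The fitted value was lower in R397W at 41 of 66 members (62.1%) and higher at 24, against 60.4% lower over all sites. This direction rested on single libraries. Without WT Foxp3 replicate 1, 26 members were lower and 34 higher (35.2% of all sites lower), and without R397W Foxp3 replicate 2, 31 were lower and 34 higher (39.1% of all sites lower). Without WT Foxp3 replicate 2, 48 were lower and 17 higher, and without R397W Foxp3 replicate 1, 43 and 22. The median log2 fold change was −0.39, and −0.39 over all sites. Between the libraries numbered 1 the member median was −0.65 (41 lower, 24 higher) and between those numbered 2 it was 0.00 (26 lower, 22 higher and 18 equal, all of the equal ones at 0). The genotypes did not overlap at 16 members, 10 lower in R397W (12.6% of all sites were lower without overlap) and 6 higher (6.43%).

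The 3 members with the lowest fitted R397W minus WT values were common sites, and none passed. The site inside Zfp62 (chr11:49203980-49204380, 449 bp past the start) had 38.8 and 73.6 (Foxp3) and 25.8 and 2.99 (IgG) in WT cells, and 18.4 and 0 (Foxp3) and 61.1 and 66.8 (IgG) in R397W cells. The Zfp536 site, inside a repressor gene of neural differentiation (chr7:37490262-37490662), had 95.8 and 53.5 (Foxp3) and 27.8 and 0 (IgG) in WT cells, and 36.8 and 0 (Foxp3) and 18.1 and 77.0 (IgG) in R397W cells. With Zbtb46, given above, the log2 fold changes were −3.63 (SE 2.67) at Zfp62, −3.56 (SE 2.37) at Zfp536 and −3.52 (SE 2.28) at Zbtb46. R397W Foxp3 replicate 2 was at 0 at all 3 sites, and R397W IgG replicate 2 was at 66.8, 77.0 and 1.91.

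The 3 with the highest fitted values, none of which passed, were near or inside Zfp518a, Zbtb20 and Zfp185. The common site 20556 bp from Zfp518a (chr19:40873275-40873675) had 23.0 and 0 (Foxp3) and 17.2 and 26.4 (IgG) in WT cells, and 31.5 and 143 (Foxp3) and 2.26 and 96.7 (IgG) in R397W cells. The site inside Zfp185, whose product carries a LIM domain and binds actin (chrX:73008045-73008445), had 74.0 and 4.66 (Foxp3) and 109.7 and 20.9 (IgG) in WT cells, and 91.9 and 123 (Foxp3) and 67.9 and 276 (IgG) in R397W cells. R397W IgG replicate 2 was also high at both. The log2 fold changes were 3.80 (SE 2.51) at Zfp518a, 2.84 (SE 3.33) at Zbtb20 and 2.38 (SE 1.47) at Zfp185, each with limma adjusted p = 1.

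**Figure D4:**
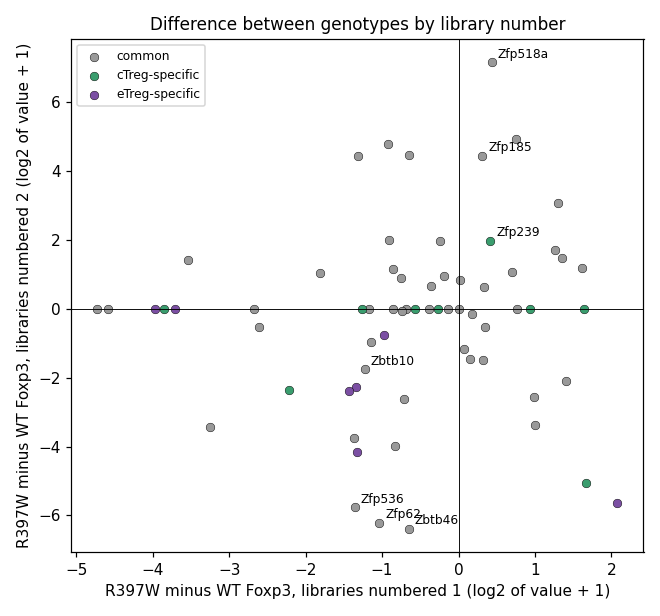
R397W minus WT Foxp3 in log2(value + 1) at each of the 66 sites, between the libraries numbered 1 (horizontal) and between those numbered 2 (vertical), coloured by site class. Points fall in all 4 quadrants, and the 18 sites with 0 in both libraries numbered 2 lie on the horizontal line.

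By class, 50 members were common (75.8%, against 70.4% of sites with a gene), 9 cTreg-specific (13.6%, against 12.7%) and 7 eTreg-specific (10.6%, against 16.8%). The 9 cTreg-specific sites were all at Zfp genes, 3 at Zfp281, 2 at Zfp217 and 1 each at Zfp51, Zfp239, Zfp704 and Zfp831. The strongest was 9457 bp from Zfp239 (chr6:117882023-117882423), with 60.6 and 26.8 (Foxp3) and 29.2 and 0 (IgG) in WT cells, and 80.9 and 109 (Foxp3) and 51.9 and 0 (IgG) in R397W cells. R397W Foxp3 exceeded WT Foxp3 there, and Foxp3 exceeded IgG in R397W, without overlap. The cTreg-specific site inside Zfp704 had 10.9 and 32.5 in WT Foxp3 and 37.1 and 0 in R397W Foxp3, which overlapped.

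The 7 eTreg-specific sites were at Zbtb38 (2), Zfp608 (2), Zbtb20, Zfp36l1 and Zfp827. Between the libraries numbered 1, R397W Foxp3 was lower than WT at 6 of them and higher at 1. Between the libraries numbered 2 it was lower at 5, with 2 sites at 0 in both. Their median log2 fold change was −1.86, and −0.79 over all 947 eTreg-specific sites. The mean value was 33.3 and 35.6 in WT Foxp3 and 20.0 and 14.9 in R397W Foxp3. With IgG it was 32.7 and 69.0 (WT), against 43.2 and 25.0 (R397W). At the site inside Zfp827 the values were 12.1 and 48.4 (Foxp3) and 37.7 and 344 (IgG) in WT cells, and 54.5 and 0 (Foxp3) and 29.8 and 0 (IgG) in R397W cells, with the highest in WT IgG.

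Most member genes had 1 site (34 of 45), 7 had 2, and 4 had 3 or more, namely Zfp281 (7), Zfp217 (4), Zfp608 (4) and Zbtb38 (3). Zfp281, a regulator of pluripotency in embryonic stem cells, had 4 common and 3 cTreg-specific sites, from 24010 bp before its start to 74397 bp past it, and 6 of the 7 lay outside the gene. Its only site inside the gene (chr1:136629198-136629598) had 8.49 and 9.78 in WT Foxp3 and 0 in the other 6 libraries. The WT Foxp3 values there rest on 7 and 21 reads. A count of 0 allows up to 3 reads, a value of 7.88 in R397W Foxp3 replicate 1 and 6.79 in R397W IgG replicate 1, so replicate 1 barely separates the groups. In WT Foxp3 the 7 sites ranged from 8.49 to 89.7 in replicate 1 and from 0 to 10.7 in replicate 2. In R397W IgG replicate 1 they reached 199.

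**Figure D5:**
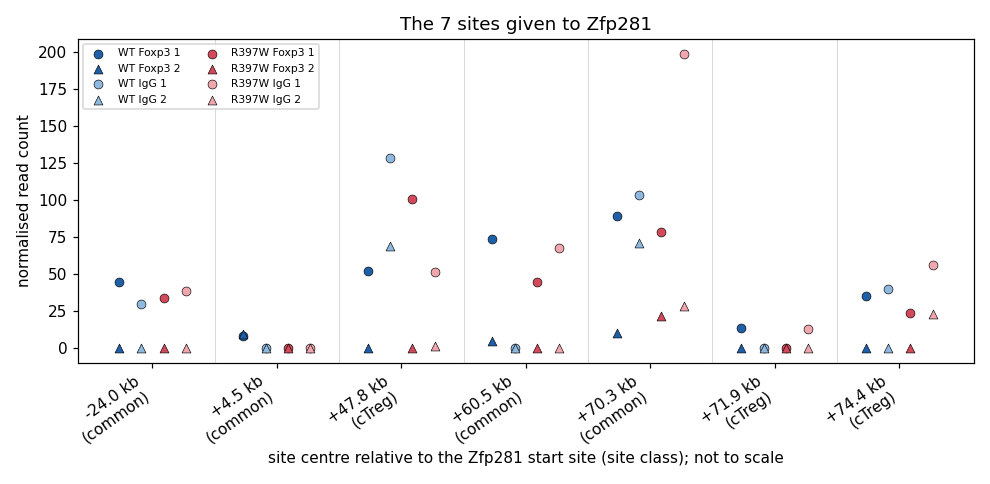
Normalised read count (linear axis) at the 7 sites given to Zfp281, ordered by position relative to its start (spacing not to scale), 1 point per library. The highest point is R397W IgG replicate 1 at the site 70281 bp past the start, and only WT Foxp3 has points above 0 at the site inside the gene.

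Zfp217, whose human counterpart is amplified in breast cancers, had 2 common and 2 cTreg-specific sites, and its WT Foxp3 values ranged from 1.21 to 40.0 in replicate 1 and from 0 to 51.2 in replicate 2. Zfp608 had 2 common and 2 eTreg-specific sites, with 13.0 to 48.5 and 4.22 to 37.2. At all 4 Zfp608 sites both WT Foxp3 libraries had reads, and R397W Foxp3 replicate 2 was at 0 at both eTreg-specific ones. The eTreg-specific site inside Zfp608 had 27.7 and 16.9 in WT Foxp3, 10.5 and 0 in R397W Foxp3 and 59.5 and 89.5 in R397W IgG. Zfp53 had the only member site without reads in any Foxp3 library.

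Reads in all 8 libraries, the best covered part of the members, were found at 18 members (27.3%, against 17.0% of all sites). Of these, 4 were at Zbtb7a, Zbtb10, Zbtb38 and Zbtb40, and 14 at Zfp genes, with WT Foxp3 means from 11.4 to 677. All but the Zbtb38 site were common.

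The 13 sites at genes not named above were all common and lay at 11 genes, Zfp1, Zfp236, Zfp318, Zfp397, Zfp418, Zfp654 (2 sites), Zfp710 (2 sites), Zfp777, Zfp821, Zfp839 and Zfp974. Their WT Foxp3 means ranged from 7.28 at Zfp654 to 101 at Zfp397. WT Foxp3 lay above WT IgG without overlap at Zfp397, with 80.0 and 122 against 63.4 and 75.6, and at Zfp974, with 146 and 45.2 against 23.8 and 0. At Zfp710 1 of the 2 sites (chr7:80091483-80091883) was separated the other way, with 20.6 and 34.9 in WT Foxp3 against 52.2 and 151 in WT IgG. At Zfp397 and Zfp974 the R397W libraries overlapped, at 84.0 and 54.1 (Foxp3) and 81.5 and 177 (IgG) for Zfp397 and 81.4 and 1.93 (Foxp3) and 86.0 and 0 (IgG) for Zfp974. At Zfp318, which B cells need for surface IgD, R397W Foxp3 was at 0 in both libraries and WT Foxp3 at 23.0 and 0. Zfp839 had 25.5 and 0 in WT Foxp3 and likewise 0 in both R397W Foxp3 libraries. In neither case did both WT libraries exceed R397W.

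A few more sites were counted above without their values. The site given to Zfp786, on the start of its neighbour Zfp398, had 58.2 and 66.1 (Foxp3) and 86.6 and 108 (IgG) in WT cells, and 34.1 and 124 (Foxp3) and 97.3 and 56.6 (IgG) in R397W cells, with IgG above Foxp3 in WT without overlap. The cTreg-specific Zfp51 site had 19.4 and 4.12 (Foxp3) and 0 and 0 (IgG) in WT cells, and 3.37 and 0 (Foxp3) and 0 and 0 (IgG) in R397W cells, and the cTreg-specific Zfp831 site 13.5 and 0 (Foxp3) and 0 and 0 (IgG) in WT cells, and 5.06 and 0 (Foxp3) and 75.7 and 6.52 (IgG) in R397W cells. The R397W Foxp3 value at Zfp51 rests on 2 reads, and R397W IgG was the highest at Zfp831. The common site of Zfp51 had 102 and 0 (Foxp3) and 19.8 and 0 (IgG) in WT cells, and 63.0 and 0 (Foxp3) and 97.3 and 0 (IgG) in R397W cells. The other site of Zfp563 had 24.3 and 0 (Foxp3) and 23.1 and 0 (IgG) in WT cells, and 42.0 and 0 (Foxp3) and 4.53 and 0 (IgG) in R397W cells, and the common site of Zfp704 26.7 and 0 (Foxp3) and 5.95 and 0 (IgG) in WT cells, and 84.0 and 1.29 (Foxp3) and 6.79 and 0 (IgG) in R397W cells. At these 3 common sites the libraries numbered 2 were at or near 0, so that the values rest on those numbered 1. The Zfp53 site had no reads with anti-Foxp3, and 13.9 in WT IgG replicate 2 and 2.26 in R397W IgG replicate 1.

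For setting, a list of other zinc finger transcription factors of T cells, which includes Bcl6, Bcl11b, Gata3 and the Ikaros family, had 68 sites at 22 of its 36 genes. None passed in R397W against WT, or in Foxp3 against IgG in either genotype (limma). Its sites fell on any start-site window in 4.41% of cases (3 sites). This was so for 16.7% of the members (11 sites) and for 9.69% of all 5521 sites. In WT its Foxp3 to IgG ratio of mean values was 1.54 in both replicates, where the members had 1.04 and 0.829. Without Zbtb7a the members had 1.24 and 0.883. In R397W the list had 1.17 and 0.805 and the members 0.801 and 1.07, so the order differed between the replicates. The genotype difference had a median of −0.50 over this list. Related CCCH genes, of which Zc3h12a encodes the RNase Regnase-1 and Rc3h1 encodes Roquin, had 17 sites at all 6 genes of the list, with 0 calls and a median genotype difference of −0.11. These differences between lists are descriptions without a test.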

How the data were processed

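The deposited tables, 1 per site class, give for each site a signal, the authors' normalised read count, in 8 libraries. Per the submitters' processing notes, Bowtie2 2.5.2 and DiffBind 3.12.0 were used with mm10 and dm6, with no step named for each. Every deposited value was a whole multiple (within 0.01) of 1 step per library and file, so whole reads were recovered for 100% of values. Alternatives that scale these reads to equal totals, or by 1 size factor per library, do not keep the authors' spike-in normalisation. The members and gene lists were chosen with earlier results of these data known. Gene positions and promoter windows came from RefSeq (GRCm38.p6).

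Tests used limma 3.58.1 in R 4.3.3 on log2(value + 1), with a trended variance, no filter on low values and no replicate block. R397W against WT was fitted on the 4 Foxp3 libraries, and contrasts with IgG on all 8. Alternatives were edgeR 4.0.16 and DESeq2 1.42.0 on recovered reads, pseudocounts of 0.5 and 5, other scalings, a filter on the lowest 25% of sites, no trend, blocks, each library left out, and narrower gene limits. The limma fit of R397W against WT was also run on simulated reads. Its recovery of changed sites is not given here, so that run does not show that 0 calls mean no change. Sites named were the 3 with the largest difference each way among those whose libraries did not overlap, the 6 with the highest WT Foxp3 mean, the leading class-specific sites, the Zbtb and Zfp36 sites and genes with 3 or more sites. Start-site members, those with all 4 Foxp3 libraries above or below IgG, and the remaining sites were named after their values were seen. Exons and introns were not analysed here.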

Additional observations from a re-analysis of the deposited data

Results flagged for a closer look

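At the common sites of Zfp62 and Zfp217, Foxp3 lay above IgG in both WT libraries and below it in both R397W libraries. The difference between genotypes in Foxp3 minus IgG was −6.28 on the log2 scale at Zfp62 (SE 3.91) and −4.37 at Zfp217 (SE 2.94), and neither passed limma (adjusted p = 1 for each). The Zfp217 site (chr2:170157711-170158111) had 1.21 and 0.931 in WT Foxp3, 0 in both R397W Foxp3 and both WT IgG libraries, and 43.0 and 1.27 in R397W IgG. Its WT Foxp3 values are below the 3.64 and 1.40 that 3 reads would give, so the WT part of this pattern was not detectable at this depth. The R397W IgG replicate 2 value rests on 2 reads and is below the 1.91 that 3 reads would give, so the R397W part rests on replicate 1.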

How the results depend on the processing

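No member passed in R397W against WT under any alternative except leaving out WT Foxp3 replicate 2, and leaving out 1 library at a time gave 0 to 7 calls among members and 0 to 643 among all sites (limma). All 7 (at Zfp281, Zfp217, Zfp318, Zfp839, Zbtb20 and Zbtb38) were at 0 in both R397W Foxp3 libraries, and the lone WT library is then assumed to vary like the other groups. For Foxp3 against IgG in WT, the 4 calls among all sites became 0 with DESeq2, edgeR, no trend, pseudocount 5, equal totals and a block on the cell sample, 1 with the replicate block, and 0 to 189 without 1 library (members 0 to 1). The difference between genotypes went from 0 calls to 1 (Zbtb7a) with the replicate block, and to between 0 and 182 without 1 library (members 0 to 1). The contrast over both genotypes went from 1 call to 0 with edgeR, no trend, pseudocount 5, equal totals and both blocks, and to between 0 and 180 without 1 library (members 0 to 1). The cause was not tested.

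The replicate block left the Zbtb7a value at −0.72 and made it pass, and it changed no other member's call. The labels do not say what a shared number means across genotypes, and the titles give a Foxp3 and an IgG library of a genotype the same sample name. Deviations of same-numbered libraries correlated at 0.04 to 0.17 between groups, with 2 numbers, so these values did not settle pairing. The main tests do not use the shared sample name. In WT they gave 1 member above and 1 below IgG at unadjusted p under 0.05 (133 and 9 of all sites, limma). With the cell sample as the block these were 6 and 1 members (344 and 16 of all sites), and 0 sites passed. With reads scaled to equal totals, the median of all sites for Foxp3 minus IgG in WT went from 1.27 to 1.02 and that of members from 0.82 to 0.44, and the share of members below IgG from 36.4% to 47.0%. With 1 size factor per library over all classes, the same values were 1.29 (all sites), 0.94 (members) and 33.3%. The member median for R397W minus WT ranged from −1.50 to 0.15 when 1 library was left out. A gene limit of 10 kb left 5 cTreg-specific and 4 eTreg-specific members, and requiring the centre inside the gene left 40 members, 3 of each specific class.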
